A study of Homo sapiens with 18 samples.

Results

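The shared effect of EPZ5676 is the part of its response that bulk cells and cells of both sorts of the melanoma line WM989 had in common. It was measured over 9 EPZ5676 libraries and 9 DMSO libraries, which are all 18 libraries of the series, with the population as an additive factor. WM989 is an established human melanoma cell line. The EPZ5676 groups had been treated with the compound at 4 µM for 7 days and were sequenced as bulk cells, as cells sorted for high levels of NGFR and EGFR (high), and as cells sorted for low levels of both (low). The DMSO groups had been given the solvent for 7 days and were split into the same 3 populations. Each of the 6 groups had 3 libraries. All groups are the same line, and every library holds poly(A)-selected RNA of a population of cells.

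EPZ5676 (pinometostat) is a small-molecule inhibitor of DOT1L. DOT1L is the methyltransferase that places methyl groups on lysine 79 of histone H3, a mark found over the bodies of transcribed genes, and it works with elongation factors of the AF9 and AF10 type. In leukaemias with MLL fusions the enzyme keeps HOXA genes and MEIS1 active. In melanoma, levels of NGFR, a neurotrophin receptor of neural crest cells, and of EGFR, a growth factor receptor, mark cells with a less differentiated state. Differentiated melanoma cells express pigment genes such as PMEL and DCT.

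Gene counts per library ran from 13383741 to 26311674. Levels are given as CPM, a gene's count relative to the total of its library after TMM scaling (trimmed mean of M values), and fold changes are log2 of EPZ5676 over DMSO ± SE. A gene was called when its adjusted p, from edgeR's quasi-likelihood test with Benjamini-Hochberg adjustment over 18121 tested genes, was under 0.05. The labels do not say whether the 3 libraries of a group were grown apart, and p-values here reflect the variation among these libraries alone, which may be technical. DMSO bulk replicate 1 stood apart. On the first principal component, with 66.4% of the variance, it lay at 30.5, while the other DMSO bulk libraries lay at -45.1 and -44.2, and it had 220 CPM of NGFR while they had 12.6 and 9.24 CPM. Reads on no gene feature made up 18.88% to 28.65% of 6 libraries, 5 of EPZ5676 and 1 of DMSO, and 12.8% to 15.17% of the other 12. This share averaged 18.85% ± 5.635 over EPZ5676 libraries and 14.69% ± 2.607 over DMSO libraries (SD, n = 9 each), with a difference of 4.161 percentage points (exact permutation within populations, two-sided p = 0.09275). All 8 melanocyte markers were detected, with summed levels of 1850 to 14300 CPM in EPZ5676 libraries and 1230 to 11800 CPM in DMSO libraries.

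The shared effect reached 1375 genes (7.59% of those tested), of which 739 were higher (4.08%) and 636 lower (3.51%) with EPZ5676. The genes that rose moved further than those that fell. The median log2 fold change was 0.44 among the higher genes and -0.20 among the lower ones, against -0.004 over all tested genes. At least 1.5-fold changes were seen for 268 higher and 20 lower genes, and at least 2-fold changes for 88 higher and 9 lower genes. The higher genes were also the weaker expressed ones, with a median level of 10.44 CPM, against 61.45 CPM for the lower genes and 14.76 CPM for all tested genes. Without DMSO bulk replicate 1, 1955 of 18784 genes were called (10.4%), 1053 higher (5.61%) and 902 lower (4.80%). Of the 1375 genes, 1321 were also called without that library, and all 1321 had the same direction. The no-feature share was over 16% in 5 of the 9 EPZ5676 libraries and in 1 of the 9 DMSO libraries. The part of this share in the calls cannot be fully told apart from that of the treatment. With the share as a covariate 479 genes were higher and 351 lower, and without the 6 libraries over 16%, which leaves 4 EPZ5676 and 8 DMSO libraries, 167 were higher and 36 lower. When DMSO bulk replicate 1 was left out as well, 578 were higher and 302 lower, and all 1373 of the 1375 genes that could be fitted there kept their sign, against 82.51% of all tested genes. The fits with libraries left out reuse libraries that chose the 1375 genes, so kept signs were likely and are a description.

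**Figure D1:**
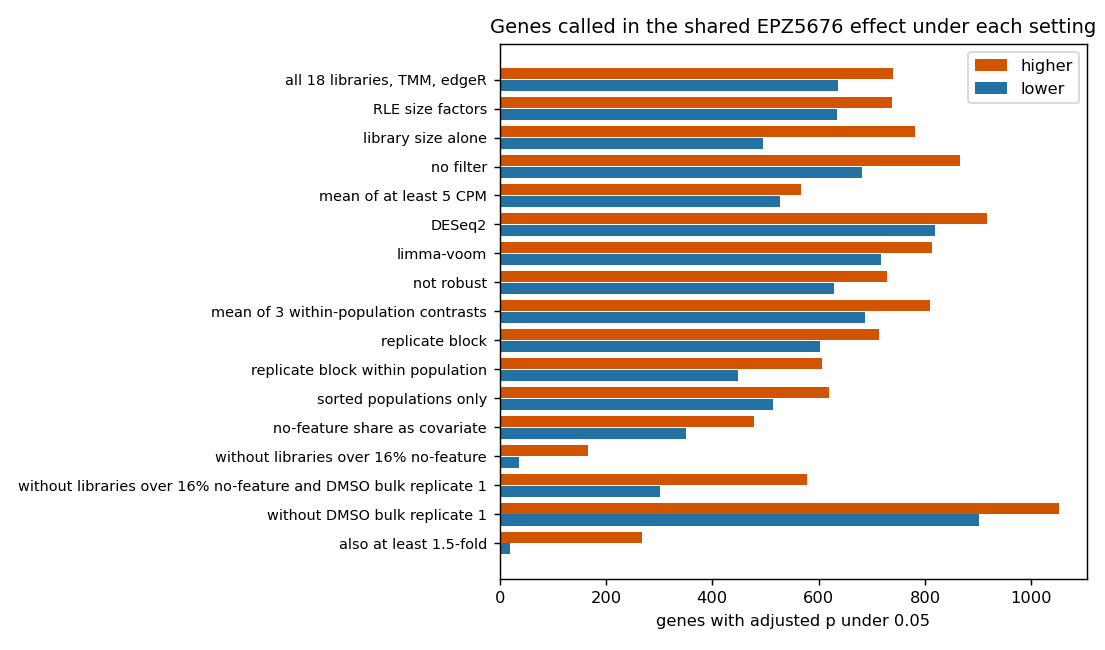
Number of genes called higher (orange) and lower (blue) with EPZ5676 in the shared effect (x axis, genes with adjusted p under 0.05) for each processing setting (y axis). The counts were 739 and 636 with all libraries, 1053 and 902 without DMSO bulk replicate 1, and 167 and 36 without the libraries with over 16% of reads on no feature.

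Among the largest shared increases were a vitamin kinase (NMRK2), a junction protein (PLEKHA7), a sialic acid receptor (CD22) and a pigment enzyme (DCT). The 12 top genes in each direction are those with the largest fold change among called genes with at least 5 CPM in the higher treatment and no overlap between EPZ5676 and DMSO libraries in any population. A call without DMSO bulk replicate 1 was also required, so being called there is not a separate result for these genes. There were 161 higher and 153 lower genes to choose from. Because the rule asks for no overlap, each of the 24 had the smallest p that an exact permutation within populations can give (0.00025, two-sided, 8000 arrangements), and that p is not a separate result. RefSeq promoter entries (GRCh38.p14) were matched for 14 of the 24, while the counts had been made on hg19. The 250 bases before the start are shown for the first matched pair in each direction, so that the letters of promoters that moved opposite ways can be read side by side. Capitals mark matches, on either strand, to any of the 8 motifs searched. Those found in these promoters were the GC box, spelled GGGCGG, the TATA box, which was searched as TATAAA, and a palindromic E-box with the letters CACGTG. The other motifs are spelled out with their shares in the next paragraph. NMRK2 (higher) starts after chr19:3933339-3933588 on the plus strand and CD22 (higher) after chr19:35328937-35329186 on the plus strand. CNIH3 (lower) starts after chr1:224434390-224434639 on the plus strand and ABCA1 (lower) after chr9:104928156-104928405 on the minus strand.
NMRK2: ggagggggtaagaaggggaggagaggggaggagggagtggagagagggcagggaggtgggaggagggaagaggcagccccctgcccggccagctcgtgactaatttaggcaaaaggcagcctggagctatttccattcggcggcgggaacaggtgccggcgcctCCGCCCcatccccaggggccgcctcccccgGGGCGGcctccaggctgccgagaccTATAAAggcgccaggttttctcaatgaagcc
CD22: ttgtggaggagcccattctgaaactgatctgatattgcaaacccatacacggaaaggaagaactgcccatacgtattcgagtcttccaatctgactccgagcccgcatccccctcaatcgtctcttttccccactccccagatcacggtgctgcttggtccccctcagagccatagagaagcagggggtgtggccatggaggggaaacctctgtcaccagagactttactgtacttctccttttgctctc
CNIH3: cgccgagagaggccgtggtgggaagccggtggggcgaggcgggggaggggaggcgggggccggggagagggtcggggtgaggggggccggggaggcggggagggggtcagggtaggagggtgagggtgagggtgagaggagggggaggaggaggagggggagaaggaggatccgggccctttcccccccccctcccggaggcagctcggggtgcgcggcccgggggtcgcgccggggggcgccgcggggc
ABCA1: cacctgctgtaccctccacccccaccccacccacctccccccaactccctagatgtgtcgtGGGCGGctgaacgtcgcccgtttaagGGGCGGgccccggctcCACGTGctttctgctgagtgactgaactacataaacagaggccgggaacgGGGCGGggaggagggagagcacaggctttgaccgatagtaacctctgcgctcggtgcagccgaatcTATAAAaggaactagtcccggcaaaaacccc
The NMRK2 promoter held a GC box on each strand and a TATA box, the ABCA1 promoter 3 GC boxes, a palindromic E-box and a TATA box, and the CD22 and CNIH3 promoters held none of the 8 motifs.

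Over all promoters with an entry (300 bases, 250 before and 50 after the start), the 2 directions differed in base content. The median GC content was 63.8% for 544 promoters of higher genes and 68.3% for 485 promoters of lower genes, against 65.2% for all 11416. CpG dinucleotides had a median of 22 per promoter among higher genes and 29 among lower genes, against 26 overall. A TATA box was in 9.56% of promoters of higher genes, 5.77% of promoters of lower genes and 5.92% of all. The GC box was in 58.6%, 73.8% and 68.6% of these groups in the same order, and the AP-1 site, searched as TGANTCA, in 6.99%, 3.09% and 4.69%. CATGTG, one of the E-box forms bound by MITF, was in 9.93% of higher, 6.19% of lower and 6.93% of all promoters. The palindromic E-box was in 9.93% of higher, 8.45% of lower and 9.82% of all promoters, and the TEAD site, searched as GGAATG, in 12.9%, 9.48% and 10.8%. An ETS site with the letters CCGGAAGT was in 4.04% of higher, 4.54% of lower and 8.42% of all promoters. The cyclic AMP response element, searched as TGACGTCA, was in 2.21%, 2.47% and 3.18%. Each motif was searched on both strands, and none of the 8 was required to be free of overlap with another. These shares are descriptions of letters and were not tested. The promoters of lower genes belonged to genes of higher level, with a median of 67.1 CPM against 11 CPM for higher genes, and the part of level in the base content was not tested.

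CD22, a sialic acid-binding lectin best known from B cells, stood at 16.1, 17.4 and 16 CPM in EPZ5676 bulk, against 7.74, 6.79 and 6.8 CPM in DMSO bulk. In high cells it stood at 12.2, 12.1 and 13.7 CPM with EPZ5676, against 8.68, 5.79 and 7.34 CPM with DMSO, and in low cells at 19.6, 23.2 and 21 CPM with EPZ5676, against 10.6, 7.53 and 8.99 CPM with DMSO. Every EPZ5676 library was above every DMSO library of its population, with a shared log2 fold change of 1.10 ± 0.09 (adjusted p = 2.49e-08). The 9 leukocyte markers summed to 1.75 to 3.06 CPM in EPZ5676 libraries and 0.831 to 2.26 CPM in DMSO libraries. ST6GALNAC2, a sialyltransferase that caps O-linked sugars, had 17.1, 18.6 and 17.7 CPM in EPZ5676 bulk, 10.9, 10.7 and 11.5 CPM in EPZ5676 high and 20.5, 19.6 and 18.5 CPM in EPZ5676 low libraries. Its DMSO levels were 7.8, 8.22 and 9.05 CPM in bulk, 6.68, 4.63 and 6.72 CPM in high and 11.4, 11.2 and 10.2 CPM in low libraries. The treatments did not overlap in any population, and the rise was 0.94 ± 0.07 (adjusted p = 1.39e-08).

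CYP26B1, the hydroxylase that clears retinoic acid, had 11.6, 10.2 and 12.3 CPM in EPZ5676 bulk against 7.13, 5.42 and 4.5 CPM in DMSO bulk. Its levels were 13.6, 13.8 and 15.8 CPM in EPZ5676 high against 6.56, 6.46 and 6.72 CPM in DMSO high, and 9.67, 8.83 and 10.1 CPM in EPZ5676 low against 5.45, 4.72 and 5.21 CPM in DMSO low. It rose by 1.01 ± 0.08 (adjusted p = 2.76e-08), and its DMSO level was close to even across populations. NMRK2, a kinase that makes NAD precursors from nicotinamide riboside, had the largest fold of the 12 but was nearly silent in high cells. It stood at 9.77, 10.8 and 8.91 CPM in EPZ5676 bulk against 0.731, 4.48 and 4.03 CPM in DMSO bulk, where the lowest value was that of replicate 1. In low cells it had 13.4, 13.8 and 12.6 CPM with EPZ5676 against 5.01, 4.47 and 4 CPM with DMSO, and in high cells it had 0.223 to 0.574 CPM with EPZ5676 against 0 to 0.0607 CPM with DMSO. Its shared log2 fold change was 1.65 ± 0.23, and 1.46 without DMSO bulk replicate 1. ZNF114, a zinc finger gene, had a similar order, with a fold change of 1.42 ± 0.17, and 2.44 to 2.92 CPM in EPZ5676 high against 0.243 to 1.18 CPM in DMSO high.

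Genes of cell contacts and secretion were among the 12. PLEKHA7, an adherens junction protein, had 7.05, 6.11 and 5.69 CPM in EPZ5676 bulk against 2.74, 3.95 and 3.8 CPM in DMSO bulk, and its fold change was 1.13 ± 0.13. Its fold change was 0.84 in bulk, 1.59 in the high sort and 1.07 in the low sort, a difference among populations that did not pass the test (interaction adjusted p = 0.635). SCUBE2, a secreted protein that helps release Hedgehog ligands, rose by 1.03 ± 0.11, and UNC80, a subunit of the NALCN sodium leak channel complex, by 0.97 ± 0.10. TRIM67, of the TRIM family of ubiquitin ligases, rose by 1.03 ± 0.11, with 3.69 to 7.67 CPM over EPZ5676 libraries and 2.11 to 3.17 CPM over DMSO libraries. For TRIM67, CD22 and CYP26B1 alone among the 24 top genes, the EPZ5676 and DMSO ranges were apart even without regard to population. A2M, a secreted protease inhibitor, stood at 228, 242 and 236 CPM in EPZ5676 high against 107, 99.5 and 100 CPM in DMSO high. In the other populations A2M had 72.7 to 96 CPM with EPZ5676 and 41.9 to 76.1 CPM with DMSO, where the highest DMSO value was that of bulk replicate 1. Its shared fold change was 0.92 ± 0.10, and 1.02 without that library.

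The 12 top lower genes fell by smaller amounts, with log2 fold changes of -0.59 to -0.39. They include a chromatin protein, an actin regulator and a sterol transporter. RNF182, a ubiquitin ligase, had 25.9, 26.3 and 25.1 CPM in EPZ5676 bulk against 39, 32.1 and 32.4 CPM in DMSO bulk. In high cells it had 34.3, 31.6 and 36.4 CPM with EPZ5676 against 42.5, 45.3 and 41.6 CPM with DMSO, and in low cells 21.1, 20 and 21 CPM with EPZ5676 against 34, 33.6 and 34.1 CPM with DMSO. The fall of -0.49 ± 0.06 was seen without overlap in each population (adjusted p = 5.09e-06). MID1IP1, which binds acetyl-CoA carboxylase in fatty acid synthesis, had 30.8, 31 and 30 CPM in EPZ5676 bulk against 48.4, 37.8 and 39.5 CPM in DMSO bulk. It fell by 0.42 ± 0.04 on the log2 scale, evenly over bulk (-0.45), high (-0.44) and low cells (-0.38).

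HMGA2, an architectural chromatin protein of embryonic and tumour cells, differed more between sorts than between treatments. It stood at 198, 201 and 192 CPM in EPZ5676 high against 280, 241 and 258 CPM in DMSO high, and at 60.3, 68.7 and 64.1 CPM in EPZ5676 low against 86.8, 82.4 and 83.5 CPM in DMSO low. In bulk cells it had 62.9, 69.5 and 64.5 CPM with EPZ5676 against 137, 91.8 and 84.9 CPM with DMSO, with replicate 1 the highest DMSO value. The fold change was -0.48 ± 0.08, and -0.40 without that library (adjusted p = 3e-09), where the rule for the top genes required a call. ABCA1, the transporter that moves cholesterol out of the cell, had 9.18, 7.88 and 7.71 CPM in EPZ5676 high against 16.5, 11.7 and 14 CPM in DMSO high and fell by 0.53 ± 0.09.

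Other lower genes were WIPF1, a partner of the actin regulator WASP (-0.46), CNIH3, an auxiliary subunit of AMPA receptors (-0.58), and RIPK4, a serine/threonine kinase (-0.39). Also lower were CPNE7, a copine (-0.59), SLC16A6, of the monocarboxylate transporter family (-0.58), CRYBG1 (-0.47) and SCRN1 (-0.40). SLC16A6, CRYBG1 and WIPF1 had their highest DMSO bulk value in replicate 1 (19.5, 39.1 and 115 CPM). Without that library their fold changes were -0.46, -0.40 and -0.41. A call in that fit was required by the rule for the top genes. SLC16A6 was the one of the 24 top genes not called with the no-feature share as a covariate (adjusted p = 0.0513).

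**Figure D2:**
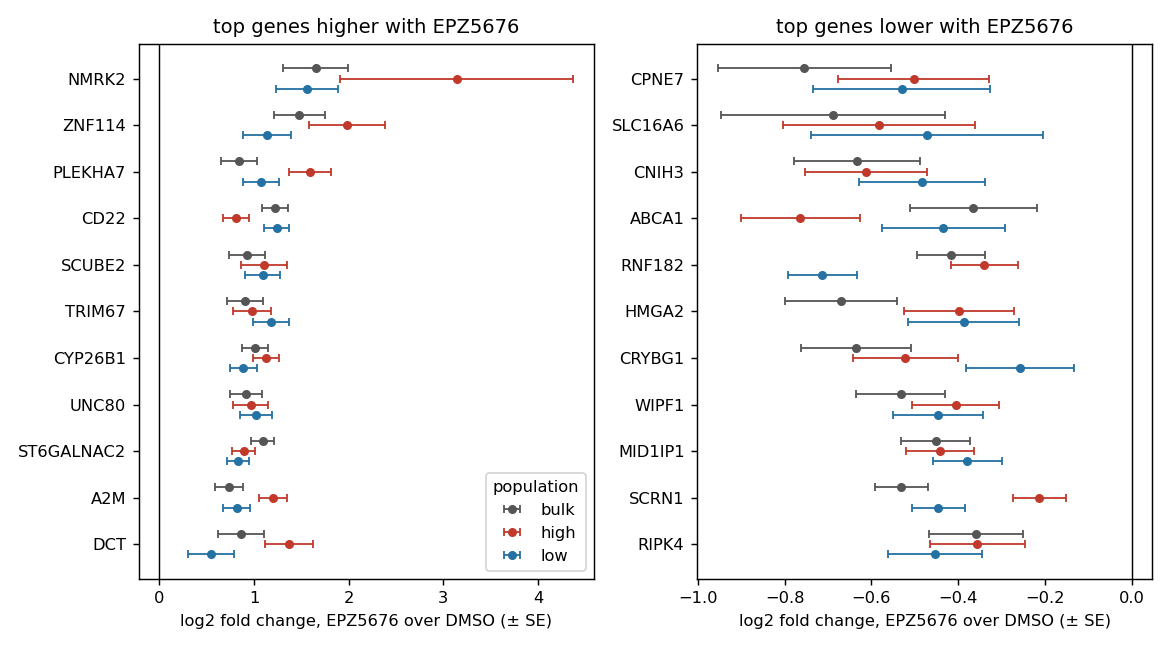
Log2 fold change of EPZ5676 over DMSO (x axis, ± SE) within bulk (grey), high (red) and low cells (blue) for 11 of the top genes higher (left) and 11 of the top genes lower (right) with EPZ5676; all values of a gene lie on the same side of 0. NMRK2 in high cells, where its level is near 0, has the widest SE, and ABCA1 fell most in high cells.

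**Figure D3:**
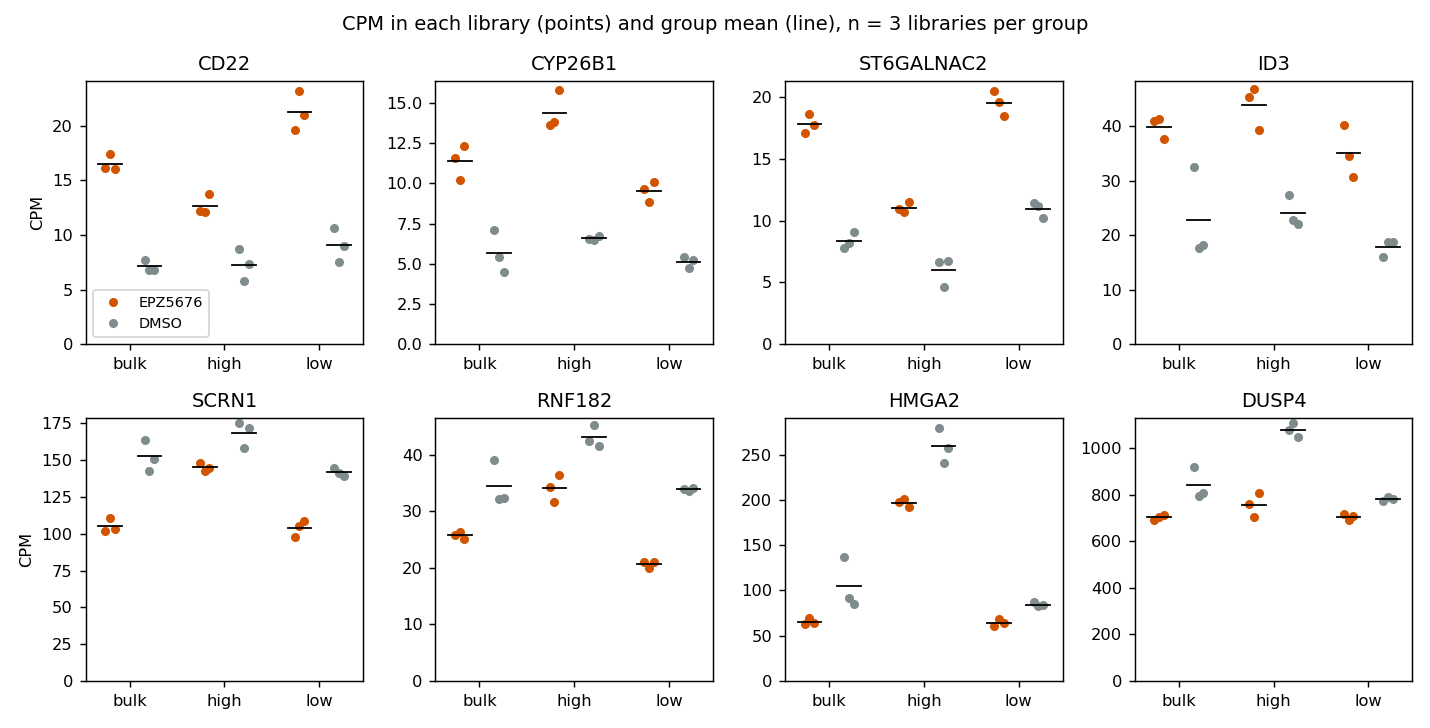
CPM (y axis) in each library (points) with the group mean (line) for 4 genes higher and 4 genes lower with EPZ5676, with EPZ5676 (orange) left of DMSO (grey) in bulk, high and low cells. EPZ5676 and DMSO libraries do not overlap in any population for these 8 genes; the highest DMSO bulk point of ID3, HMGA2 and DUSP4 is replicate 1.

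The same sign in bulk, high and low cells was found for 1352 of the 1375 called genes (98.33%; 725 higher and 627 lower), against 38.8% of all tested genes. This share is a description, since a gene called over 18 libraries is likely to have 1 sign. The other 23 differed in sign in bulk (2), high (16) or low cells (5). None of the 1375 was called in the opposite direction within a population. MBP, which is not among them, was called lower in high cells and higher in low cells. No overlap between treatments in any population was found for 239 higher genes (1.32%) and 170 lower genes (0.938%), of which 228 and 159 were called. Within bulk cells alone, 90 genes were called higher (0.497%) and 42 lower (0.232%). Within high cells 354 were higher (1.95%) and 189 lower (1.04%), and within low cells 129 were higher (0.712%) and 59 lower (0.326%). Without DMSO bulk replicate 1, the counts were 550 genes within bulk (2.93%), 2018 within the high sort (10.7%) and 968 within the low sort (5.15%), with the spread estimated over all groups together.

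In each of the 3 populations on its own, with 1 sign, 30 genes were called, 25 higher and 5 lower, and 120 without DMSO bulk replicate 1, 95 higher and 25 lower. CTSD, the lysosomal protease cathepsin D, had the smallest p of all tested genes. It stood at 416, 427 and 450 CPM in EPZ5676 bulk against 264, 296 and 303 CPM in DMSO bulk. In high cells it had 264, 296 and 265 CPM with EPZ5676 against 191, 191 and 192 CPM with DMSO, and in low cells 486, 479 and 483 CPM with EPZ5676 against 316, 330 and 323 CPM with DMSO. No library overlapped, and the fold change was 0.56 ± 0.03 (adjusted p = 1.93e-10), with 0.58 in bulk, 0.52 in the high sort and 0.58 in the low sort. GLMP, a glycosylated lysosomal membrane protein, rose by 0.34 ± 0.04. SGK1, a kinase induced by glucocorticoids and serum, stood at 576 to 586 CPM in EPZ5676 bulk against 408 to 454 CPM in DMSO bulk and rose by 0.47 ± 0.04 overall.

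Other genes higher in each population were CDH3, which encodes P-cadherin (1.12), CXCL16, a chemokine (0.71), PCSK6, a proprotein convertase (0.74), and PI15, a peptidase inhibitor (0.87). PRSS33, a serine protease of low level, had the largest fold of the 30 at 1.94 ± 0.22. It stood at 2.14, 2.87 and 2.55 CPM in EPZ5676 bulk against 0.548, 0.737 and 0.704 CPM in DMSO bulk. In high cells PRSS33 was near 0, with 0.0585, 0.503 and 0.383 CPM with EPZ5676 against 0, 0.0482 and 0.0693 CPM with DMSO. The treatments overlapped there, and its call within high cells (2.85 ± 0.77, edgeR adjusted p = 0.0481) rests on few reads. Also among the 25 were PLEKHB1 (0.82), PDE4DIP (0.43), AIF1L (0.52), PODXL2 (0.41), RAP1GAP2 (0.54) and SPARC (0.47), besides 10 of the 12 top higher genes and 1 gene without a name. The 5 lower genes were RNF182, MID1IP1, WIPF1, CCDC50 (-0.34) and BTG3, of the BTG family that slows cell division (-0.30). These genes were named after their values were seen, where the naming rule does not give them.

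Reading a population that took no part in the choice gives the same measure in other libraries. Genes were called in an additive fit of 2 populations, and the sign of their difference was then read in the 6 libraries of the third. Of 1135 genes called without bulk libraries (6.37% of those tested), 1041 had the same sign in bulk (91.72%), against 65.64% of all tested genes. Of 689 called without high libraries (3.99%), 566 had the same sign in high cells (82.15%, against 59.38%). Of 379 called without low libraries (2.17%), 362 had the same sign in low cells (95.51%, against 59.85%). Both directions took part. Without low libraries 224 of 228 higher and 138 of 151 lower genes kept their sign, and without high libraries 334 of 400 and 232 of 289 did.

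The high population gave the share that depended most on 1 library. Without DMSO bulk replicate 1, bulk and low cells together called 2756 genes, and 1676 of them had the same sign in high cells (60.81%, against 54.80% of all tested genes). When the libraries over 16% no-feature were left out as well, the share in high cells was 65.78%, against 55.62% of all tested genes. Without DMSO bulk replicate 1 alone, the shares for the other held-out populations were 90.04% in bulk and 93.28% in low cells. These compare with 62.09% and 62.53% of all tested genes. With the no-feature share as a covariate they were 91.31% in bulk, 85.53% in the high sort and 98.63% in the low sort, against 65.32%, 59.67% and 57.66% of all tested genes. Without the libraries over 16% they were 95.13% in bulk and 88.78% in the high sort, against 62.57% and 59.1% of all tested genes, while edgeR called 0 genes in the fit that leaves out low cells, with 993 at an unadjusted p under 0.05.

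**Figure D4:**
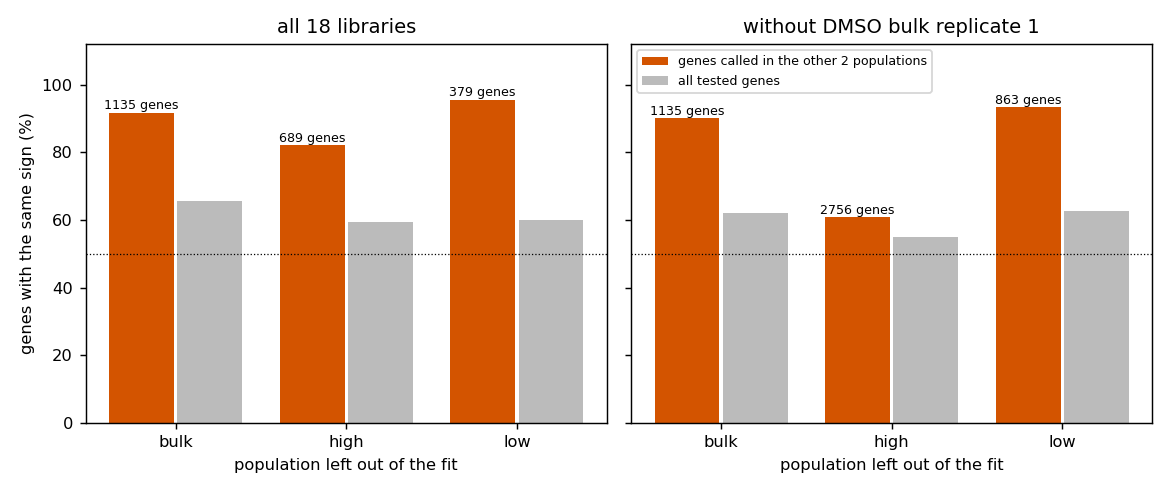
Percent of genes (y axis) whose EPZ5676 minus DMSO difference has the same sign in the population left out (x axis) as in the fit of the other 2, for genes called there (orange) and all tested genes (grey), with all 18 libraries (left) and without DMSO bulk replicate 1 (right); the dotted line is at 50%. The share in high cells was 82.15% with all libraries and 60.81% without DMSO bulk replicate 1.

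DOT1L, the target of the compound, was itself slightly lower. EPZ5676 acts on the enzyme, so its transcript is no check of the treatment. DOT1L stood at 127, 121 and 127 CPM in EPZ5676 bulk against 169, 147 and 131 CPM in DMSO bulk. In high cells it had 185, 186 and 180 CPM with EPZ5676 against 211, 196 and 217 CPM with DMSO, and in low cells 121, 118 and 114 CPM with EPZ5676 against 125, 127 and 124 CPM with DMSO. The libraries did not overlap in any population, and the fold change was -0.18 ± 0.04 (adjusted p = 0.00836). Without the libraries over 16% and DMSO bulk replicate 1 its adjusted p was 0.0504. Of 13 DOT1L partners and complex genes, AFF3, a member of the AFF family of elongation factors, rose (0.41 ± 0.05), DOT1L fell and 11 were not called. The called share of this list was 15.4%, against 7.59% of all tested genes. Of 13 HOXA, MEIS and PBX genes, 0 were higher and MEIS2 was lower (-0.21 ± 0.05). With 1 called, this was 7.69% of the list, against 7.59% of all tested genes. Of 35 tested histone lysine methyltransferases and demethylases, 14.3% were called, against 7.59% of all tested genes. SETDB2 was higher (0.25 ± 0.06) and EZH2, NSD2, KDM1A and KDM2A were lower, EZH2 by -0.20 ± 0.04. With the no-feature share as a covariate 0 were higher and 2 lower, and SETDB2, NSD2 and KDM1A had adjusted p-values of 0.07, 0.0624 and 0.191.

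Neither gene used for the sort was called in the shared effect with all 18 libraries. NGFR stood at 767, 768 and 645 CPM in EPZ5676 high against 563, 537 and 617 CPM in DMSO high, and at 3.64, 6.86 and 1.05 CPM in EPZ5676 low against 0.639, 1.61 and 0.764 CPM in DMSO low. In bulk it had 35.7, 29.9 and 30.3 CPM with EPZ5676 against 220, 12.6 and 9.24 CPM with DMSO. The shared fold change was -0.07 ± 0.63 (adjusted p = 0.97), and 0.95 without DMSO bulk replicate 1 (adjusted p = 0.0447). EGFR had 56 to 69.2 CPM in EPZ5676 high against 68.7 to 85.6 CPM in DMSO high and 4.27 to 4.81 CPM in EPZ5676 low against 2.26 to 3.46 CPM in DMSO low, and it was not called (-0.11 ± 0.22, adjusted p = 0.839). Of 18 rare-cell resistance markers, 0 were called in either direction, and 2 were higher and 1 lower without DMSO bulk replicate 1. In bulk RNA, fewer cells of a type and less RNA per cell cannot be told apart.

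Pigment cell genes moved in both directions. Of 26 tested pigmentation genes, 4 were higher and 2 lower (23.1%, against 7.59% of all tested genes). The median fold change was 0.09 over the list, against -0.004 over all tested genes. DCT, the enzyme dopachrome tautomerase of melanin synthesis, had 1330, 1310 and 1310 CPM in EPZ5676 bulk against 358, 922 and 895 CPM in DMSO bulk. It stood at 146, 148 and 165 CPM in EPZ5676 high against 62.7, 56.8 and 58.1 CPM in DMSO high, and at 1540, 1500 and 1580 CPM in EPZ5676 low against 1090, 1010 and 1060 CPM in DMSO low. The EPZ5676 libraries were the higher ones in every population, and the gene rose by 0.92 ± 0.16 (0.83 without DMSO bulk replicate 1, the lowest DMSO bulk library). Its fold change was 0.86 in bulk, 1.37 in the high sort and 0.55 in the low sort, with an interaction adjusted p of 0.695, and of 1.65e-11 without that library. A2M, RNF182 and SCRN1 likewise differed among populations without that library, with interaction adjusted p-values of 0.00783, 0.0168 and 0.0435, and did not pass with it. The same held for PMEL (0.0038), DUSP4 (0.00012), SGK1 (0.00386), IRF4 (0.0274), ITGA4 (0.00156), SPRY1 (0.00688) and PTPN14 (0.0245). Other genes named here may be among the 1032 with a called interaction in that fit. PMEL, the fibre protein of melanosomes, rose by 0.59 ± 0.13, with 841 to 959 CPM in EPZ5676 high against 508 to 584 CPM in DMSO high. TRPM1, an ion channel of melanocytes (0.66), and ABCB5, a transporter (0.84), were also higher. MYO5A, the motor that carries melanosomes, and AP3B1, a sorting adaptor subunit, were lower by -0.25 and -0.16. MITF, the lineage's master transcription factor, was not called (0.12 ± 0.07), nor was TYR (0.22 ± 0.07) or MLANA (-0.22 ± 0.13). IRF4, a regulator of tyrosinase, rose by 0.56 ± 0.16, and PAX3, an early factor of the lineage, fell by 0.28 ± 0.07. IRF4, PAX3, TRPM1 and AP3B1 were not called with the no-feature share as a covariate, with adjusted p-values of 0.112, 0.0641, 0.112 and 0.0736.

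Of 19 tested neural crest genes, 5 were higher and 0 lower (26.3%, against 7.59% of all tested genes), with a list median of 0.08. Among them were RXRG, a retinoid receptor subunit (0.37), S100B (0.26) and ITGA4, an integrin subunit (0.20). The retinoic acid list overlaps with it. Of its 13 tested genes 3 were higher and 0 lower (23.1%, against 7.59% of all tested genes). The 3 were CYP26B1, RXRG and ALDH1A1, which makes retinoic acid (0.62 ± 0.11). Without DMSO bulk replicate 1, 6 were higher.

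Feedback genes of the MAPK pathway limit signalling through it. The list of MAPK output held 22 tested genes, with 0 higher, 5 lower (22.7%, against 7.59% of all tested genes) and a median of -0.11. DUSP4, a phosphatase of ERK, stood at 691, 705 and 712 CPM in EPZ5676 bulk against 919, 795 and 809 CPM in DMSO bulk, and at 759, 704 and 807 CPM in EPZ5676 high against 1080, 1110 and 1050 CPM in DMSO high. In low cells it had 719, 690 and 710 CPM with EPZ5676 against 775, 791 and 783 CPM with DMSO. DUSP4 was lower without overlap in every population (-0.31 ± 0.05, adjusted p = 0.000156). Within low cells alone it was not called (-0.15, edgeR adjusted p = 0.265). SPRY1 (-0.32) and SPRY2 (-0.21), of the Sprouty family, SPRED1 (-0.15) and DUSP5 (-0.15) were the others. The list median was -0.16 in bulk, -0.10 in the high sort and 0.02 in the low sort. Of 23 YAP/TEAD genes, 0 were higher and 5 lower (21.7%, against 7.59% of all tested genes), while the list median was 0.03. The 5 were the coactivators YAP1 (-0.17) and WWTR1 (-0.30), the factor TEAD1 (-0.17), PTPN14 (-0.38) and AMOTL1 (-0.27). These 5 are parts or regulators of the pathway. With the no-feature share as a covariate 4 MAPK output and 2 YAP/TEAD genes were lower, and WWTR1, PTPN14 and AMOTL1 had adjusted p-values of 0.0519, 0.0908 and 0.143. Without DMSO bulk replicate 1, 3 YAP/TEAD genes were higher and 5 lower.

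ID1, ID2 and ID3, inhibitors of basic helix-loop-helix factors and targets of BMP signals, were higher. ID3 stood at 40.9, 41.2 and 37.6 CPM in EPZ5676 bulk against 32.4, 17.6 and 18.1 CPM in DMSO bulk. In high cells it had 45.4, 46.7 and 39.2 CPM with EPZ5676 against 27.3, 22.8 and 22 CPM with DMSO, and in low cells 40.2, 34.5 and 30.6 CPM with EPZ5676 against 16, 18.7 and 18.7 CPM with DMSO. It rose by 0.89 ± 0.10 (0.99 without DMSO bulk replicate 1), and ID1 (0.64) and ID2 (0.48) were also called. SMAD3, a signal transducer, was higher (0.14) and SMAD7, the inhibitory SMAD, lower (-0.49). This makes 4 higher and 1 lower of 23 tested TGF-beta response genes (21.7%, against 7.59% of all tested genes). The list median was -0.11. With the no-feature share as a covariate ID3 was called, while ID1, ID2, SMAD3 and SMAD7 had adjusted p-values of 0.0682, 0.0913, 0.181 and 0.0698.

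Metabolic genes moved with small folds. Of 31 tested glycolysis and hypoxia genes, 1 was higher and 9 lower (32.3% called, against 7.59% of all tested genes). The list median of -0.09 lay at -0.10 in bulk, -0.09 in the high sort and -0.08 in the low sort. PFKL, a subunit of phosphofructokinase, stood at 290, 286 and 285 CPM in EPZ5676 bulk against 364, 326 and 313 CPM in DMSO bulk and at 379, 341 and 358 CPM in EPZ5676 high against 440, 427 and 439 CPM in DMSO high. In low cells it had 289, 297 and 294 CPM with EPZ5676 against 315, 316 and 320 CPM with DMSO, so no population overlapped, and it fell by 0.20 ± 0.03. PFKP (-0.15), hexokinase 2 (HK2, -0.17), TPI1 (-0.16), PDK1, which holds back pyruvate dehydrogenase (-0.23), and SLC16A3, the lactate exporter (-0.21), were lower. P4HA1 (-0.20), ADM (-0.27) and BNIP3 (-0.22), induced in hypoxia, were lower too, and ALDOA was the higher one (0.11). With the no-feature share as a covariate 1 was higher and 7 lower, and TPI1 was also not called without DMSO bulk replicate 1 (adjusted p = 0.0698). Of 36 nuclear oxidative phosphorylation genes, 4 were higher and 0 lower (11.1%, against 7.59% of all tested genes), led by PPARGC1A, a coactivator of mitochondrial biogenesis. PPARGC1A stood at 24.8, 20.4 and 22.5 CPM in EPZ5676 bulk against 8.83, 13.7 and 15.1 CPM in DMSO bulk, and at 6.13 to 7.15 CPM in EPZ5676 high against 3.83 to 5.06 CPM in DMSO high (0.69 ± 0.09). The rest of that list was led by UQCRC2 (0.18), with a median of 0.05. Of 20 tested genes of sterol efflux and lipid transport, 30% were called, against 7.59% of all tested genes. CD36 (1.54 ± 0.29, at under 1.7 CPM in every library), FABP3 (0.46), FABP7 (0.26), NPC2 (0.18) and PLTP (0.15) were higher and ABCA1 was lower. Of 31 sterol and fatty acid synthesis genes, 0 were higher and 3 lower (9.68%, against 7.59% of all tested genes), with a list median of -0.02. Among the 3 were the transcription factors SREBF1 (-0.25) and SREBF2 (-0.13). With the no-feature share as a covariate 1 was lower, and SREBF2 had an adjusted p of 0.102.

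**Figure D5:**
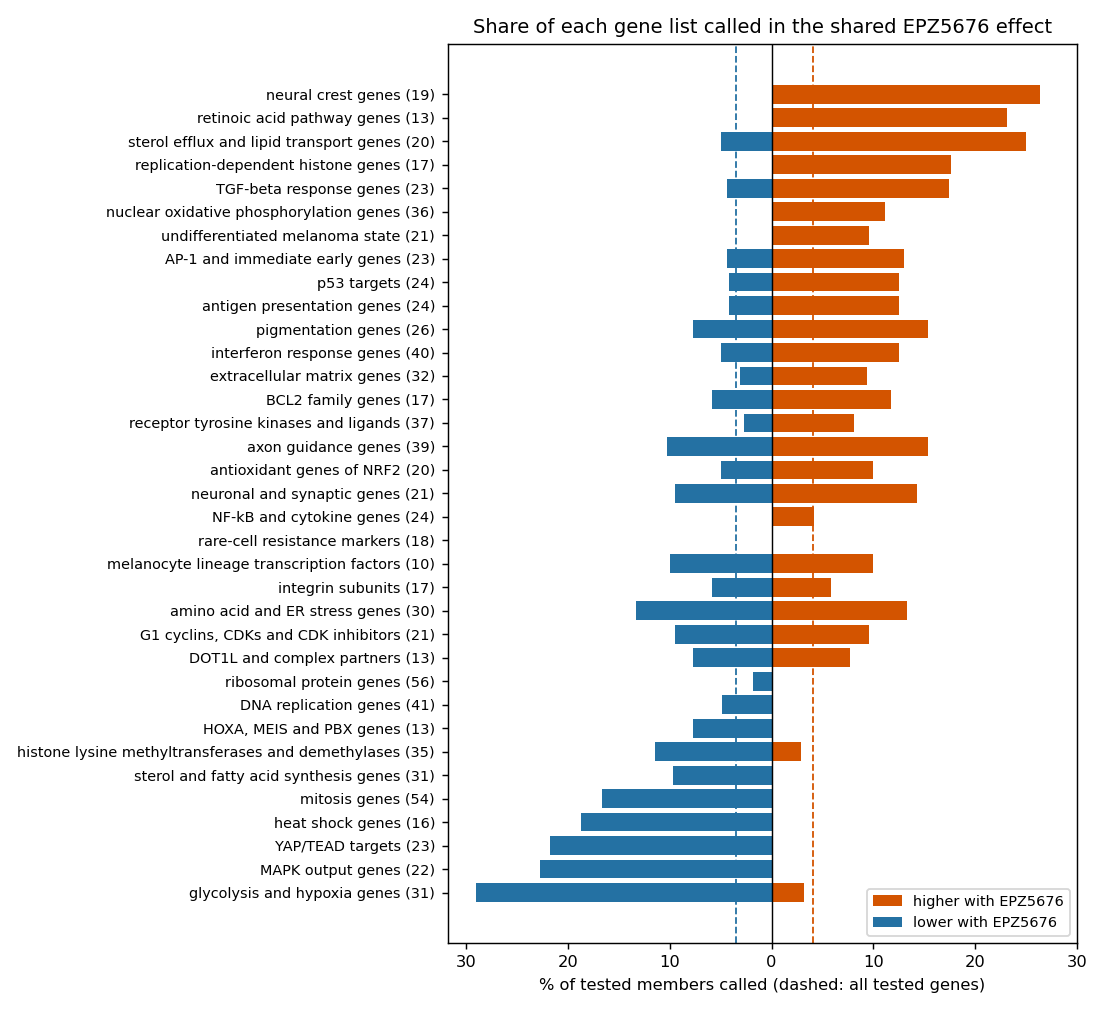
Percent of tested members of each gene list (y axis, with the number tested) called lower (blue, to the left) or higher (orange, to the right) with EPZ5676 in the shared effect (x axis); dashed lines give the shares of all tested genes, 3.51% lower and 4.08% higher. Glycolysis and hypoxia, MAPK output, YAP/TEAD and heat shock genes have the largest shares lower, and neural crest, sterol efflux and retinoic acid genes the largest shares higher.

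The mitosis list held 54 tested genes, with 0 higher, 9 lower (16.7%, against 7.59% of all tested genes) and a median of -0.07. AURKA, the mitotic kinase, stood at 119, 123 and 128 CPM in EPZ5676 bulk against 138, 136 and 129 CPM in DMSO bulk and fell by 0.12 ± 0.03. CCNB1, the mitotic cyclin (-0.14), CDK1 (-0.17), KIF23 (-0.16) and KIF18A (-0.25) were also lower, and 3 of the 54 were called with the no-feature share as a covariate. Of 41 DNA replication genes, 0 were higher and 2 lower (4.88%, against 7.59% of all tested genes). Among the cell cycle inhibitors, CDKN2A (-0.32 ± 0.05) and CDKN1B, which encodes p27 (-0.22 ± 0.05), were lower and CDKN2B was higher (0.14; adjusted p = 0.0689 with the no-feature share as a covariate). The ribosomal protein genes, with 0 higher and 1 lower of 56 (1.79%), were below the background of 7.59%.

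The replication-dependent histone genes, whose main transcripts carry no poly(A) tail, had the largest list median at 1.44. Of 17 tested, 3 were called (17.6%, against 7.59% of all tested genes). Single libraries decided that count, which was 16 without DMSO high replicate 3, 5 without EPZ5676 high replicate 3, and 1 without EPZ5676 high replicate 2 or without DMSO low replicate 3. H2BC11, H2BC12 and H2AC6 rose by 1.10 ± 0.26, 0.63 ± 0.16 and 0.63 ± 0.16. The list median was 2.46 in bulk, 0.33 in the high sort and 1.79 in the low sort, 0.37 with the no-feature share as a covariate and 0.47 without the libraries over 16% and DMSO bulk replicate 1. Members of the same histone family resemble each other in sequence, and how reads that fit more than 1 member were handled is not known.

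Guidance and surface receptor genes moved both ways. Of 39 axon guidance genes, 6 were higher and 4 lower (25.6%, against 7.59% of all tested genes). Without DMSO bulk replicate 1, 10 were higher and 5 lower. PLXNA2, a semaphorin receptor, stood at 22.8, 24.8 and 22.3 CPM in EPZ5676 bulk against 5.42, 13.2 and 14 CPM in DMSO bulk (0.82 ± 0.14, and 0.70 without DMSO bulk replicate 1). SEMA3E (0.75), EFNB2 (0.74), SEMA6B (0.64), SEMA3D (0.58) and SEMA3B (0.17) were higher, and EFNA5 (-0.35), ROBO1 (-0.22), NRP2 (-0.21) and SEMA4C (-0.15) were lower. Of 37 receptor tyrosine kinases and ligands, 10.8% were called, against 7.59% of all tested genes. MET, the HGF receptor (0.51 ± 0.06), FGF2 (0.71) and KIT (0.80, at under 1.7 CPM in every library) were higher and IGF1R was lower (-0.27 ± 0.03). Without DMSO bulk replicate 1, 7 of the list were higher and 3 lower. MET stood at 26, 30.8 and 29.2 CPM in EPZ5676 bulk against 18.1, 19 and 20.1 CPM in DMSO bulk, at 37.8 to 40.2 CPM in EPZ5676 high against 27.1 to 36.6 CPM in DMSO high, and at 28.2 to 30.6 CPM in EPZ5676 low against 17.3 to 19.6 CPM in DMSO low. No population overlapped.

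SPARC, COL12A1 and LAMA4 were higher and LAMC1 lower of 32 extracellular matrix genes (12.5% called, against 7.59% of all tested genes). Without DMSO bulk replicate 1, 9 were higher and 2 lower. COL12A1, a fibril-associated collagen, rose by 0.96 ± 0.14. Of 40 interferon response genes, 17.5% were called, against 7.59% of all tested genes. There were 5 higher, among them CMPK2 (0.68), MX1 (0.35) and OAS3 (0.19), and 2 lower, IFI44 (-0.38) and IFIT5 (-0.21). With the no-feature share as a covariate 3 were higher and 0 lower. HLA-DPA1, a class II chain, rose by 1.15 ± 0.16 at 1.12 to 2.4 CPM with EPZ5676 against 0.386 to 1.31 CPM with DMSO. Of markers of other cells, 1 of 7 tested fibroblast genes (LUM, 0.54), 1 of 2 leukocyte genes (PTPRC, 1.07) and 1 of 5 endothelial genes (TIE1, 0.86) were called higher. The fibroblast list had a median of -0.39 and a lowest fold change of -1.2. The medians were 0.94 for leukocyte and 0.46 for endothelial genes. With the no-feature share as a covariate 0 leukocyte genes were called. The fibroblast markers summed to 97.7 to 743 CPM with EPZ5676 and 72.5 to 1410 CPM with DMSO, the keratinocyte markers to 26.2 to 40.8 and 28.1 to 43.5 CPM, and the endothelial markers to 27 to 41.1 and 24.6 to 36.9 CPM. KRT1, 1 of 9 keratinocyte markers, and PECAM1, 1 of 8 endothelial markers, had 0 counts in all libraries, while KRT10 and EGFL7 were detected. The part of such transcripts in the result was not tested.

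The effect of EPZ5676 differed among the populations for 26 genes (0.143% of those tested) by the interaction test over all genes, with 1417 at an unadjusted p under 0.05, and for 1032 (5.49%) without DMSO bulk replicate 1. SPARC, a matricellular protein, was higher in all 3 populations but most so in high cells. It stood at 1090, 1100 and 1080 CPM in EPZ5676 high against 632, 607 and 675 CPM in DMSO high. In bulk SPARC had 1170, 1230 and 1170 CPM with EPZ5676 against 948, 915 and 956 CPM with DMSO, and in low cells 1080, 1100 and 1080 CPM with EPZ5676 against 839, 928 and 902 CPM with DMSO. Its EPZ5676 libraries lay close together whatever the sort, and the fold changes were 0.34 in bulk, 0.78 in the high sort and 0.29 in the low sort (interaction adjusted p = 0.00241). Of the 26 genes, 5 were also called in the shared effect.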

How the data were processed

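The deposited table gives unnormalised read counts for Ensembl genes. Per the submitters' processing notes, STAR, HTSeq and the build hg19 were used by the authors; versions and strand setting are not given in the sources used here, so reads of overlapping and antisense genes cannot be told apart. It lists 63677 genes and 5 summary lines per library, which were left out of the tests. Names matched for 52181 genes, and for 345 more from GENCODE; 11151 with 0.9217% of counts stayed unnamed. No 2 libraries were identical.

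The model of the counts used edgeR 4.0.16 under R 4.3.3 (filterByExpr, TMM, robust quasi-likelihood), with treatment and population as additive factors. A fit of the 6 group means gave within-population effects and the interaction. P-values were adjusted by Benjamini-Hochberg at 0.05. Single genes were also tested by exact permutation of treatment within populations (prior count 2). DOT1L, NGFR and EGFR were always named. The rest are 12 genes per direction, up to 4 called genes of each list with at least 2 calls, and the 6 interaction genes with the smallest p; some are not reported here. The members, lists and tests were chosen with earlier results of these data known. Alternatives were other scalings, filters, DESeq2 1.42.0, limma-voom (limma 3.58.1), blocks, the no-feature share and left-out libraries. The fit was tested on simulated data. Figures were drawn with matplotlib 3.10.9 in Python 3.11.15; pandas 2.3.3 and numpy 2.4.6 made the tables. Precision is limited by 3 libraries per group and 13383741 to 26311674 gene counts per library.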

Additional observations from a re-analysis of the deposited data

Results flagged for a closer look

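The effect of EPZ5676 differed among bulk, high and low cells for 26 genes by the interaction test of edgeR. The 6 with the smallest p follow, each with its difference between populations as what marked it out. MBP, a protein of myelin, had 327, 309 and 339 CPM in EPZ5676 high against 498, 486 and 472 CPM in DMSO high, and 334, 331 and 328 CPM in EPZ5676 low against 242, 246 and 224 CPM in DMSO low, so that its direction was opposite in the sorts (interaction adjusted p = 0.000119). ETS1, a transcription factor, was higher in high cells, with 233, 238 and 215 CPM with EPZ5676 against 159, 164 and 167 CPM with DMSO, and had log2 fold changes of -0.06 in bulk and -0.14 in low cells (interaction adjusted p = 0.00015). COL14A1, a fibril-associated collagen, had log2 fold changes of 0.83 in bulk, -0.23 in the high sort and 0.69 in the low sort (interaction adjusted p = 0.00127). TSPAN9, a tetraspanin, had 86.2, 83 and 88.9 CPM in EPZ5676 high against 118, 121 and 117 CPM in DMSO high and near-equal levels in the other populations (interaction adjusted p = 0.00205). SPARC rose most in high cells (interaction adjusted p = 0.00241). PLAT, the tissue plasminogen activator, had log2 fold changes of -0.26 in bulk, 0.48 in the high sort and -0.12 in the low sort (interaction adjusted p = 0.00241).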

How the results depend on the processing

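Genes higher and lower numbered 479 and 351 with the no-feature share as a covariate, 167 and 36 without the libraries over 16%, 578 and 302 without these and DMSO bulk replicate 1, and 268 and 20 at 1.5-fold or more. Leaving out 1 library gave 580 to 1053 higher and 451 to 902 lower. Called genes with the same sign in all populations numbered 826, 203 and 848 in the first 3 of these settings, and 1020 to 1860 with 1 library left out. Genes called in each population numbered 52 without a filter, 13 with the share, 0 without the libraries over 16% (edgeR; 92 at unadjusted p under 0.05) and 13 to 120 with 1 library left out. Interaction genes numbered 295 without a filter, 137 by DESeq2, 0 without the libraries over 16% (402 at unadjusted p under 0.05), 243 without these and DMSO bulk replicate 1, and 13 to 1032 with 1 library left out. The replicate numbers pair no samples by the labels, and the correlations of 9 same-number pairs ran from -0.34 to 0.0471, with 2 best with their own number. A replicate block gave 714 higher and 603 lower genes; a replicate block within populations gave 606 and 449, 13 called in each population and 12 interaction genes. NGFR, called higher without DMSO bulk replicate 1 and in none of the other settings given here, turned positive by DESeq2 (0.304), limma-voom (0.355), the mean of populations (0.332), the blocks (0.149 and 0.495), sorted cells only (0.717), the share (0.00838), without libraries over 16% (0.118) and without DMSO bulk replicate 1 too (0.925), and ran from -0.285 to 0.954 with 1 library left out. EGFR was 0.0151, 0.105 and 0.255 by the mean of populations and in these last fits, and -0.174 to 0.0851 with 1 library left out. MBP was -0.0496 in sorted cells only, and PLAT ran from -0.02 to 0.076 with 1 library left out. Of 123 called named genes, 89 were called with the share, 37 without the libraries over 16%, 92 without these and DMSO bulk replicate 1, and 0 changed sign in any setting. The settings reuse libraries that chose these genes, so kept signs were likely and are a description. The causes were not tested.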
